A study of Mus musculus with 4 samples.

Results

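Granzymes, perforin and the genes of the granule that holds them were examined in T cells from the borders of the brain, the meninges and the choroid plexus (CP), in young and aged mice. The 9 genes were taken by name (Gzma, Gzmb, Gzmk, Gzmm, Prf1, Nkg7, Ctsw, Cst7 and Srgn), and they are 9 of the 31053 genes in the count tables. The 4 libraries were made from T cells of female C57BL/6 mice without any other genotype or treatment, young (10 weeks old) or aged (18 months old), sorted as CD4 and CD8 T cells by flow cytometry and sequenced from the 5′ end of transcripts in droplets. Each library pooled 5 mice, so there was 1 library per condition, no replicate and no test, and a difference between young and aged cannot be told apart from a difference between 2 pools. A comparison therefore gives both values or their ratio. Where 95% intervals are given, they cover counting error only. Levels in cells split by a marker gene are given without intervals.

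Cytotoxic lymphocytes kill by releasing granules into the contact with a target cell. Perforin opens the membrane of the target, and granzymes, a family of serine proteases that differ in what they cleave, enter through it. Serglycin is the proteoglycan that packs these proteins in the granule, Nkg7 is a membrane protein of the granule, cystatin F restrains the cathepsins that trim progranzymes, and cathepsin W is a cysteine protease of cytotoxic lymphocytes whose substrates are little known. Gzmk is the granzyme known for memory T cells in aged tissue, whereas Gzmb and perforin are known for effector cells.

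Gzma and Gzmk are neighbours on the minus strand of chromosome 13, with 70.6 kb between them. Gzma lies at chr13:113093825-113100981 and Gzmk at chr13:113171608-113225908, Gzmb at chr14:56258838-56262260, Nkg7 at chr7:43437073-43438249 and Cst7 at chr2:150570415-150578944 (GENCODE vM21, GRCm38, all protein-coding). The promoter windows of these 5 genes are shown because Gzmk followed Cst7 and Nkg7 more closely in level than it followed Gzma, its neighbour. Over the 12 combinations of class and library, Gzmk had a Pearson r of 0.98 with Cst7, 0.86 with Nkg7 and 0.49 with Gzma. Nkg7 was closer to Ctsw (0.96), Gzmb (0.93) and Gzmm (0.92) than to Gzmk, so Gzmk, Nkg7 and Cst7 are not a group apart. Each window holds 250 bases before and 50 bases from the annotated start on, read 5′ to 3′ on the strand of the gene, from RefSeq sequence of GRCm38.p6. Capitals mark matches to TGTGGT (the letters of a Runx site), AGGTGTG (T-box) or TGANTCA (AP-1) on either strand.
Gzma, chr13:113100932-113101231, minus strand: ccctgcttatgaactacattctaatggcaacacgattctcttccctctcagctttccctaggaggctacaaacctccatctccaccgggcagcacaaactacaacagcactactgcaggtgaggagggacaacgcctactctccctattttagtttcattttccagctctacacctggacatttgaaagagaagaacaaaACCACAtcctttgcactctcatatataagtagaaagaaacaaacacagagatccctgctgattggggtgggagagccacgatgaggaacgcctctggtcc
Gzmk, chr13:113180916-113181215, minus strand: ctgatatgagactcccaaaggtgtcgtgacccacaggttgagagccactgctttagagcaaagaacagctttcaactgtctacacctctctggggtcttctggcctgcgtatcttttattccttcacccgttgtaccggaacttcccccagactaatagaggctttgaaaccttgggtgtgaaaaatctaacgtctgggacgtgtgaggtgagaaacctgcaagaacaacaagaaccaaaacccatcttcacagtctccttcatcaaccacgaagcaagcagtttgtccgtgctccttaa
Gzmb, chr14:56262285-56262584, minus strand: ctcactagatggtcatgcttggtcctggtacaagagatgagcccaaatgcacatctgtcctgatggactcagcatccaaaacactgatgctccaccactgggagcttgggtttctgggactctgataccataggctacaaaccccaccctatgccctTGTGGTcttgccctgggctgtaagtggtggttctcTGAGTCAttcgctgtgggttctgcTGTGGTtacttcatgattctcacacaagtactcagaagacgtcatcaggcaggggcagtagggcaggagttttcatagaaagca
Nkg7, chr7:43436888-43437187, plus strand: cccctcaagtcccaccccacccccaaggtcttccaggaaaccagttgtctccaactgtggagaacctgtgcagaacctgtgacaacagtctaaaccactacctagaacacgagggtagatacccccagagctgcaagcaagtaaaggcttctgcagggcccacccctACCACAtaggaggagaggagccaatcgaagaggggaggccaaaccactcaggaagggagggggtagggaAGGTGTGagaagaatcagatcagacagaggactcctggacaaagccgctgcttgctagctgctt
Cst7, chr2:150570165-150570464, plus strand: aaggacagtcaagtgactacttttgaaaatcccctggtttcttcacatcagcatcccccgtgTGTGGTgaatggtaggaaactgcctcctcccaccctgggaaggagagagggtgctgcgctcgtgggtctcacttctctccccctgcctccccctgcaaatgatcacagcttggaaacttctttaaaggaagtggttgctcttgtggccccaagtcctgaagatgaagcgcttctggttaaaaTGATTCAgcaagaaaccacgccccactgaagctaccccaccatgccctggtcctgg
The window of Gzmk, which lies inside the span given for the gene and not at its 5′ end, held none of the 3 motifs. That of Gzmb held 2 Runx matches and 1 AP-1 match, that of Nkg7 1 Runx and 1 T-box match, that of Cst7 1 Runx and 1 AP-1 match, and that of Gzma 1 Runx match. No 2 matches overlapped in these windows. A promoter was found for 8 of the 9 genes, with 10 windows in all because Gzmm and Srgn have 2 starts each. Of the 10 windows, 7 held the Runx letters, 1 the T-box letters and 2 the AP-1 letters. Over all 32851 windows of the same length the shares were 16.8%, 5.84% and 7.81%. A match describes letters, not a bound factor.

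After the study's limits on genes and mitochondrial counts, removal of doublets and the requirement of a Cd3d, Cd3e or Cd3g unique molecular identifier (UMI), 1007 T cells of the young meninges, 605 of the young CP, 1408 of the aged meninges and 1094 of the aged CP remained. All values in groups of 4 are given in this order. T cells with a Cd8a or Cd8b1 UMI and no Cd4 UMI were called CD8 (254, 160, 281 and 473 cells), those with a Cd4 UMI alone CD4 (254, 160, 362 and 230 cells), and those with neither UMI are called double-undetected here (481, 269, 735 and 358 cells). Double-undetected is a call on transcripts, not on protein, and these cells were also the shallowest, their cells having 2993, 2815, 2079 and 2357.5 UMIs at the median against 3645, 3437.5, 2811 and 3121 in CD8 T cells. Cells with both UMIs (18, 16, 30 and 33) were kept out of the classes. Levels are CPM, the UMIs of a gene summed over the cells of a class and scaled to the same total in every class. In such a sum, fewer expressing cells and less RNA per cell cannot be told apart, so shares of cells with a UMI are given as well. Of the pairs of libraries, 0 to 3 cell barcodes were found in both.

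CD4 T cells with a UMI of Ccr7, a homing receptor of naive T cells, served as cells that should lack cytotoxic transcripts. They numbered 146, 100, 35 and 26, with medians of 3219.5, 2886, 2632 and 2929.5 UMIs. Gzmb and Gzmm were found in 0 of them in all 4 libraries and Gzma in 1 of 146 in the young meninges and 0 elsewhere, where a count of 0 in the smallest group has an upper 95% limit of 13.2% (Clopper-Pearson, as for all shares). Gzmk was found in 0%, 2%, 17.1% and 15.4% of them, Nkg7 in 2.74%, 6%, 17.1% and 19.2%, Cst7 in 5.48%, 6%, 20% and 15.4%, Prf1 in 1.37%, 3%, 2.86% and 3.85%, Ctsw in 21.9%, 29%, 11.4% and 23.1%, and Srgn in 70.5%, 48%, 88.6% and 84.6%. These cells thus carried Ctsw and Srgn at any age, and Gzmk, Nkg7 and Cst7 in the aged libraries. The Gzmk shares of the aged cells were close to those of all aged CD4 T cells (17.4% and 17%). A margin over background for Gzmk in CD4 T cells could therefore not be drawn from the comparison cells. Whether their Gzmk UMIs are background was not tested.

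**Figure D1:**
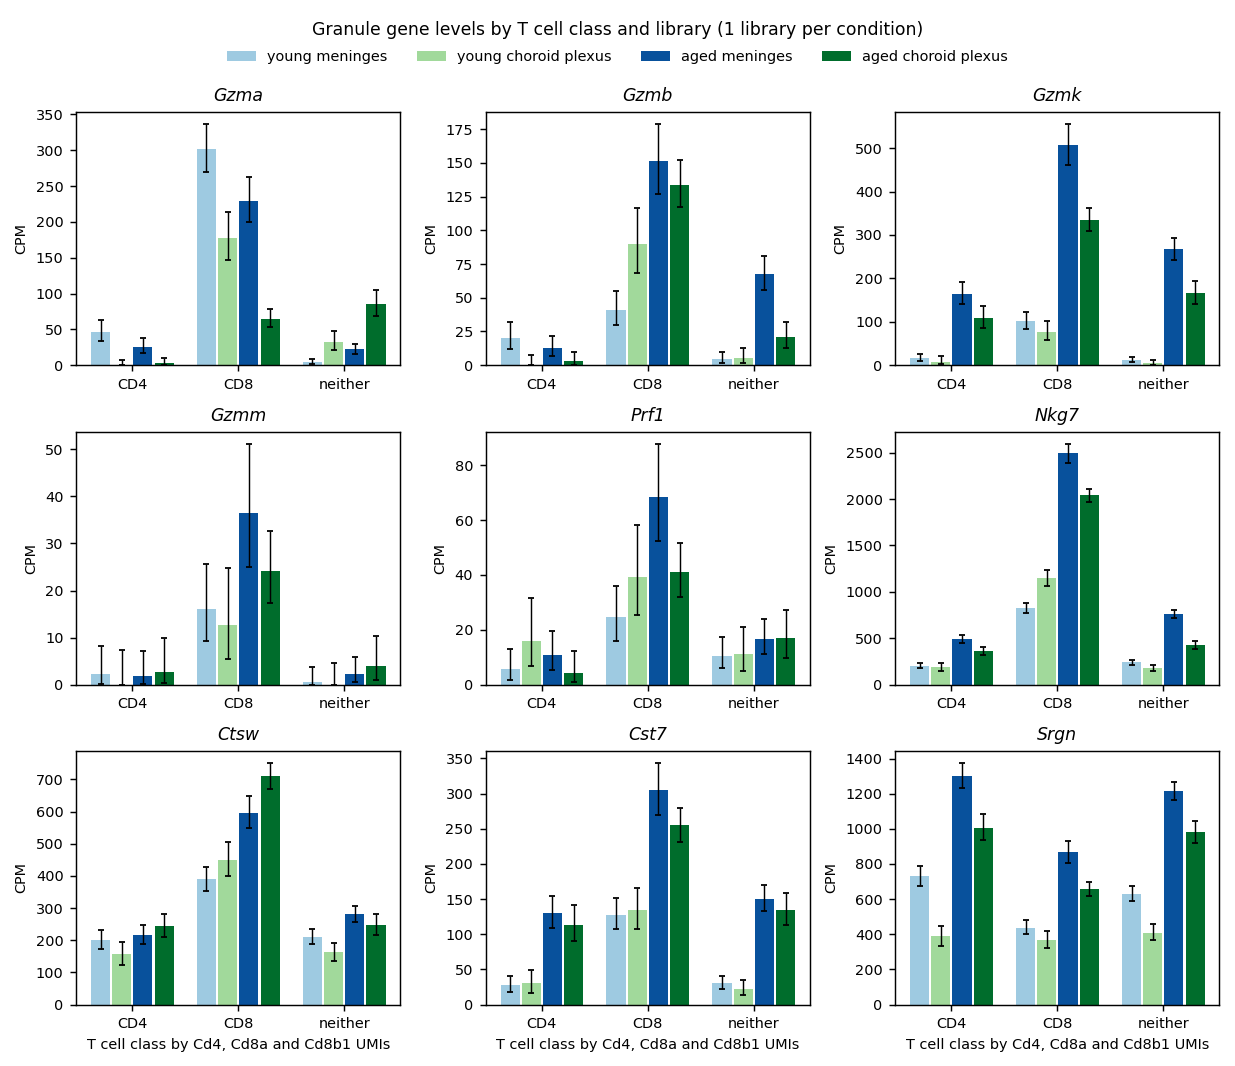
Level of each granule gene (vertical axis, CPM, UMIs summed over cells) in the CD4, CD8 and double-undetected ("neither") T cells of the 4 libraries, with 95% Poisson intervals as bars. Levels of Gzmk, Nkg7 and Cst7 lay above the young ones in the aged libraries in each class, those of Gzma did not, and Srgn is the gene whose level in CD8 T cells was the lowest of the 3 classes in every library.

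Gzmk differed most between the ages. In CD8 T cells its level was 101 (95% interval 83.0 to 122), 77.2 (57.1 to 102), 507 (462 to 556) and 335 (308 to 363) CPM, so both aged libraries lay above both young ones. The fold of aged over young was 5.01 (4.05 to 6.24) in the meninges and 4.33 (3.24 to 5.93) in the CP. In double-undetected cells the level went from 11.3 and 4.96 CPM in the young meninges and CP to 267 and 166 CPM in the aged ones, and in CD4 T cells from 15.8 and 8.05 to 165 and 109 CPM. The share of CD8 T cells with a Gzmk UMI was 12.6%, 16.2%, 59.8% and 52.2%, and after drawing 1000 UMIs from every cell 7.48%, 10.2%, 39.8% and 28.8%. A positive CD8 T cell held 3.34, 1.88, 2.73 and 2.35 Gzmk UMIs, and 2.03, 1.68, 2.66 and 2.32 without the top cell of each library. More cells were thus positive in the aged libraries, and without the top cells their load was also somewhat higher. In the young meninges 1 cell held 44 of the 107 Gzmk UMIs, and without the top cell of each library the log2 ratio in meningeal CD8 T cells went from 2.22 to 2.82.

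Gzma had the opposite layout, a few cells with many transcripts. It was found in 10, 7, 18 and 17 CD8 T cells, which is 3.94%, 4.38%, 6.41% and 3.59%, with 31.9, 16.1, 11.6 and 6.65 UMIs per positive cell. Its summed level was 302, 178, 230 and 65.1 CPM. Single cells held much of it, 121 of 319 UMIs in the young meninges and 53 of 113 in the young CP. Without the top cell the levels were 187, 94.6, 172 and 50.7 CPM, in the same order. The shares of positive cells had overlapping intervals in all 4 libraries (1.90 to 7.12%, 1.78 to 8.81%, 3.84 to 9.94% and 2.11 to 5.69%), so a change with age in the number of Gzma cells was not detectable at this depth. In double-undetected cells Gzma was found in 5, 3, 11 and 7 cells.

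Gzmb lay between these patterns. Its CD8 level was 40.7 (29.4 to 54.8), 89.8 (68.0 to 116), 151 (127 to 179) and 134 (117 to 152) CPM. It was found in 8 of 254, 10 of 160, 45 of 281 and 81 of 473 CD8 T cells, or 3.15%, 6.25%, 16.0% and 17.1%. The load per positive cell was 5.38 and 5.70 UMIs in the young libraries and 3.04 and 2.86 UMIs in the aged ones. In the young libraries 1 cell held 20 of 43 and 24 of 57 Gzmb UMIs, and without the top cell the loads were 3.29, 3.67, 2.86 and 2.75 UMIs. The aged libraries thus had a larger share of Gzmb cells, while the gap in load rested largely on 1 cell in each young library. The fold of aged over young was 3.72 (2.62 to 5.37) in meningeal CD8 T cells and 1.49 (1.11 to 2.02) in CP CD8 T cells, and only the former passed the rule of size given below. In double-undetected cells of the aged meninges 1 cell held 41 of 117 Gzmb UMIs.

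Gzmm, which cleaves after methionine, was the rarest of the granzymes measured, in 9, 4, 13 and 18 CD8 T cells at 16.1, 12.6, 36.5 and 24.2 CPM. The separate intervals of young and aged overlapped in both tissues, which does not by itself mean equal levels. Neither difference passed the rule of size given below. In CD4 and double-undetected cells it had at most 4 UMIs in any library. Prf1, the pore former, reached 24.6 (16.1 to 36.0), 39.4 (25.5 to 58.2), 68.5 (52.5 to 87.8) and 40.9 (32.0 to 51.6) CPM in CD8 T cells. Only the aged meninges stood above the library of the same tissue in young mice, by 2.78-fold (1.74 to 4.59). A Prf1-positive CD8 T cell held 1 to 1.13 UMIs on average, so at this depth the gene was seen as present or not.

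Nkg7 and Ctsw were found in most CD8 T cells of every library, and Cst7 in most of the aged ones alone. Nkg7 was at 826, 1150, 2491 and 2038 CPM in CD8 T cells and had a UMI in 73.2%, 73.1%, 94.7% and 93.7% of them. Cst7, cystatin F, was at 128, 134, 305 and 255 CPM and had a UMI in 35.8%, 35%, 59.1% and 58.8%. For both, each aged library lay above the young library of its tissue without overlap of intervals. Ctsw, cathepsin W, was at 389 (352 to 428), 449 (399 to 504), 597 (547 to 649) and 709 (670 to 750) CPM, a fold of 1.53 (1.35 to 1.75) in the meninges and 1.58 (1.39 to 1.80) in the CP.

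Srgn, serglycin, followed the classes in another order. Its CD8 level was 438, 367, 866 and 657 CPM, its CD4 level 729, 388.5, 1301 and 1006 CPM, and its double-undetected level 631, 409, 1215 and 980 CPM. CD8 T cells had 0.601 (0.532 to 0.678), 0.945 (0.778 to 1.15), 0.666 (0.609 to 0.728) and 0.654 (0.595 to 0.718) times the level of CD4 T cells. The interval included 1 in the young CP alone. In the 6 comparisons of the ages, by class and tissue, the aged level was 1.78 to 2.59 times the young one.

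A gene was counted as higher or lower where it had at least 20 UMIs in the higher profile and, with 10 CPM added to both values, differed by 1 or more on the log2 scale. In meningeal CD8 T cells 5 of the 9 genes were higher with age (Gzmb, Gzmk, Prf1, Nkg7 and Cst7), against 3.2% of all genes tested, and 0 of 9 were lower, against 1.83%. The median log2 ratio of the 9 genes was 1.18, beside 0.04 over all genes tested. In CP CD8 T cells 1 of 9 was higher (Gzmk), against 2.46% of all genes, and 1 was lower (Gzma, log2 ratio -1.32), against 0.872%. The median of the 9 genes was 0.65 there, beside 0.12 over all genes tested. For 7 of the 9 genes the CP value thus lay inside the limits of 1 on the log2 scale, and without the top cell of each library Gzma did too, at -0.79.

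Outside CD8 T cells the same comparison gave 3 of 9 genes higher with age in CD4 T cells of the meninges (Gzmk, Nkg7 and Cst7), against 4.23% of all genes tested. In CD4 T cells of the CP it gave 3 (Gzmk, Cst7 and Srgn), against 7.27%. Double-undetected cells had 5 in the meninges (Gzma, Gzmb, Gzmk, Nkg7 and Cst7), against 3.44%, and 6 in the CP (the same genes and Srgn), against 4.62%. Without the top cell of each library Gzma of the meningeal double-undetected cells had a log2 ratio of 0.60 in place of 1.19. Not all 9 genes had the 20 UMIs in these classes, with 6 and 5 tested in CD4 T cells and 8 and 7 in double-undetected cells. Gzmk passed the rule in all 6 comparisons and Cst7 in 5, the exception being CP CD8 T cells, where its log2 ratio was 0.88. Ctsw passed it in none, with log2 ratios of 0.11 to 0.65.

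**Figure D2:**
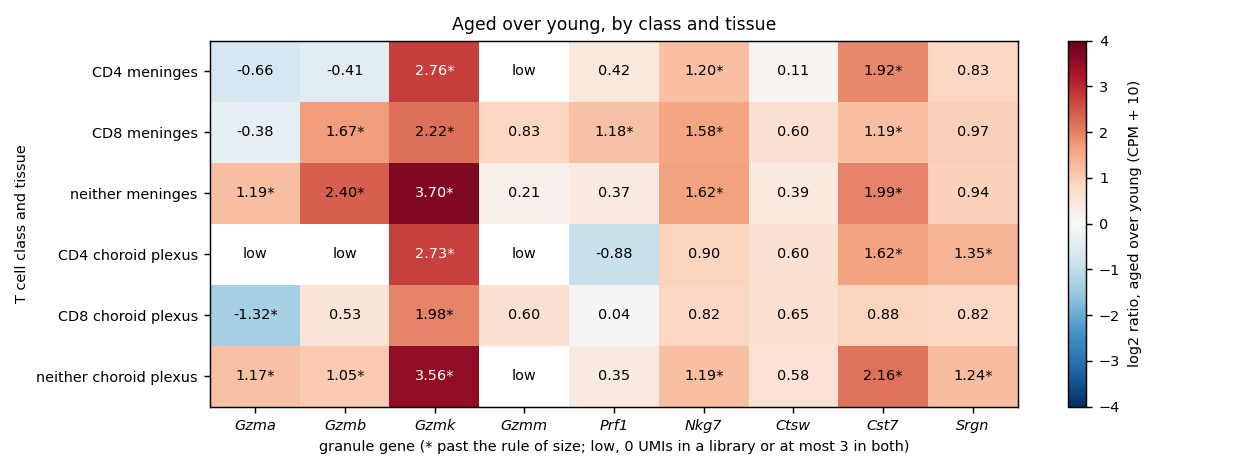
Log2 ratio of aged over young (colour and number, CPM + 10) for each granule gene (columns) in each T cell class and tissue (rows). Stars mark values past the rule of size. Gzmk was past it in all 6 rows, at 1.98 to 3.70, and Ctsw in none.

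The share of naive-like cells moved with age in the same libraries. A Ccr7 UMI was found in 59.7% and 54.7% of the T cells of the young meninges and CP and in 9.52% and 9.87% of the aged ones. Among CD8 T cells without a Ccr7 UMI, Gzmk was at 259, 127, 567 and 360 CPM and Nkg7 at 1260.3, 1712, 2719 and 2175 CPM. Without Ccr7 cells, 3 of the 9 genes were higher with age in meningeal CD8 T cells, against 4.29% of all genes tested in those cells, and 1 in CP CD8 T cells, against 3.14%. In CD4 T cells 2 were higher in each tissue, against 3.4% in the meninges and 7.83% in the CP. In double-undetected cells 4 were higher in the meninges and 3 in the CP, against 2.64% and 4.14%. The log2 ratio of Gzmk in CD8 T cells was then 1.10 in the meninges and 1.44 in the CP, still past 1, and in double-undetected cells 2.96 and 3.39. That of Gzmb in meningeal CD8 T cells was 0.61, no longer past 1, and that of Nkg7 in meningeal CD4 T cells went from 1.20 to 0.17. Of the differences between the ages, those of Gzmk were therefore also found among cells without Ccr7 transcripts in each class. Log2 ratios of Cst7 in CD4 and double-undetected cells of both tissues stayed past 1 as well. So did those of Nkg7 in meningeal CD8 T cells, Gzmb in meningeal and Srgn in CP double-undetected cells. A cell without a Ccr7 UMI can still be naive-like. A UMI of Ccr7, Lef1 or Tcf7 was found in 92.5%, 76.25%, 38.4% and 42.7% of CD8 T cells. The part of remaining naive-like cells in these ratios was not tested.

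Cells of different classes in a library share its preparation, though not their depth, with medians of 3215, 2857, 2329 and 2624 UMIs in CD4 T cells, all below those of CD8 T cells. In CD8 over CD4 T cells 5, 6, 8 and 8 of the 9 genes were higher, against 1.04%, 2.1%, 1.09% and 1.35% of all genes tested. Nkg7, Cst7, Gzma and Gzmk were higher in all 4 libraries. Nkg7 was 4.0-fold (3.41 to 4.72), 6.08-fold (4.90 to 7.62), 5.1-fold (4.62 to 5.63) and 5.62-fold (4.95 to 6.39) higher. For Gzmk the fold was 6.41 (3.66 to 12.1) and 9.59 (3.52 to 36.6) in the young and 3.07 (2.57 to 3.69) and 3.06 (2.42 to 3.92) in the aged libraries. CD4 T cells of the young CP had 0 UMIs of Gzma, Gzmb and Gzmm. A count of 0 (a floor of 3 UMIs over the class) allows 6.04 CPM there, beside 178 CPM of Gzma and 89.8 CPM of Gzmb in CD8 T cells of that library.

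Double-undetected cells of the aged libraries lay between the other classes for Gzmk. In the aged meninges CD8 T cells had 1.90 times (1.67 to 2.17) the Gzmk level of double-undetected cells, which had 1.62 times (1.35 to 1.94) that of CD4 T cells. In the aged CP the ratios were 2.01 (1.69 to 2.41) and 1.52 (1.16 to 2.01). Gzma did not follow, since double-undetected cells of the aged CP had 85.2 CPM, of which 1 cell held 42 of 85 UMIs, against 65.1 CPM in CD8 T cells. Of the 405 Gzmk-positive T cells of the aged meninges 168 were CD8, 160 double-undetected and 63 CD4. Of the 355 in the aged CP 247 were CD8, 53 double-undetected and 39 CD4. The CD8 share of all T cells was 20% in the aged meninges and 43.2% in the aged CP.

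Fewer of the 9 genes passed the rule of size between tissues, in CD8 T cells, than between ages or against CD4 T cells. Gzma was an exception in size, with a log2 ratio of -1.67 between the aged tissues, beside -1.32 between the ages in the CP. In CD8 T cells of young mice 0 of the 9 genes were higher in the CP than in the meninges and 0 lower, against 1.04% and 1.68% of all genes tested. Gzmb came closest, at 2.21-fold (1.46 to 3.36) and a log2 ratio of 0.98. In aged mice 0 were higher, against 0.441%, and Gzma was lower, against 0.939%, with 0.283 times the meningeal level (0.223 to 0.358). The log2 ratios of the 9 genes in aged CD8 T cells ran from -1.67 (Gzma) to 0.25 (Ctsw). Their median was -0.39, beside 0.04 over all genes tested.

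Cells were next counted by how many of the 9 genes they held. After thinning to 1000 UMIs, 14.6% (10.5 to 19.5), 20.4% (14.4 to 27.5), 60.2% (54.2 to 66.1) and 49.8% (45.2 to 54.4) of CD8 T cells had 3 or more. The highest number in a single CD8 T cell was 6, 5, 6 and 6. None of the 9 genes was found in 31.1%, 30.6%, 2.92% and 3.0% of CD8 T cells. In CD4 T cells 7.11%, 3.77%, 13.8% and 10.5% had 3 or more, and in double-undetected cells 3.59%, 3.0%, 16.8% and 13.6%. Without thinning the CD8 shares were 56.3%, 60%, 87.9% and 89.2%, and another random draw gave 44.8% in the aged CP. Among CD8 T cells without Ccr7 the shares were 28.9%, 37.0%, 63.1% and 52.0%.

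**Figure D3:**
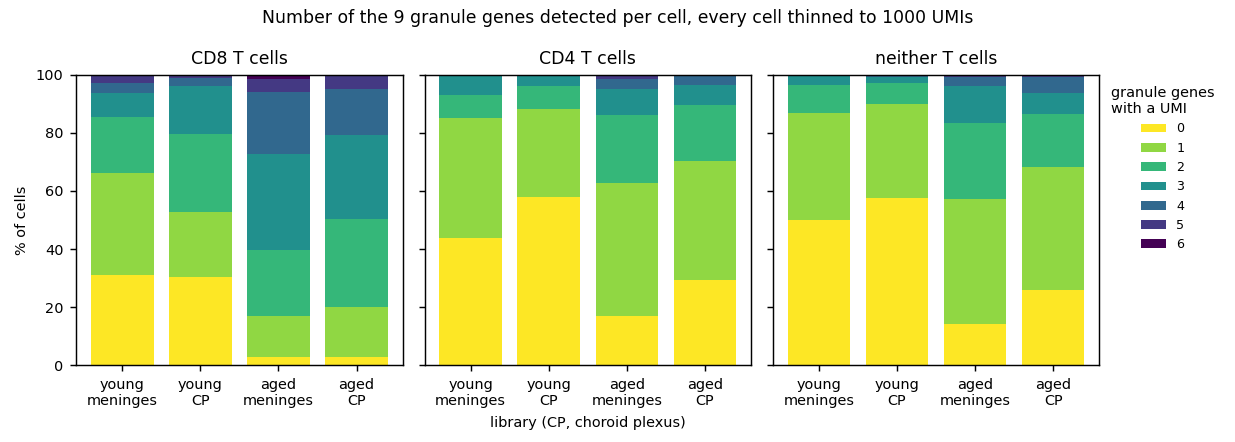
Share of cells (vertical axis, percent) by the number of the 9 granule genes with a UMI, for CD8, CD4 and double-undetected ("neither") T cells of each library, all cells thinned to 1000 UMIs. CD8 T cells with none were 31.1% and 30.6% of the young libraries and 2.92% and 3.0% of the aged ones.

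The granzymes overlapped unevenly within cells. These counts are of cells that were not thinned, so uneven depth between cells is not accounted for. In CD8 T cells of the aged libraries the largest group with a granzyme had Gzmk and neither Gzma nor Gzmb, 139 of 281 cells in the meninges and 196 of 473 in the CP, or 49.5% and 41.4%. Gzmb and Gzmk were found together in 25 and 46 cells of the aged meninges and CP, where 26.9 and 42.3 would be expected from their separate shares. Gzma and Gzmb were found together in 12 and 11 cells, where 2.88 and 2.91 would be expected. Thus Gzmb met Gzmk about as often as its share gives, and met Gzma more often. Gzma and Gzmk shared 7 cells in the aged meninges, with 10.8 expected, and 9 in the aged CP, with 8.88 expected. Gzmm and Gzmk shared 2 and 4 cells, with 7.77 and 9.40 expected. No CD8 T cell of any library held both Gzma and Gzmm. Only 0.354, 0.175, 0.833 and 0.647 cells were expected in the 4 libraries, so the rarity of the 2 genes allows this. All 4 granzymes were thus in no CD8 T cell. Gzmm and Prf1 shared 9 cells of the aged CP, with 2.51 expected. The counts are small, and the cells of a library are not replicates.

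**Figure D4:**
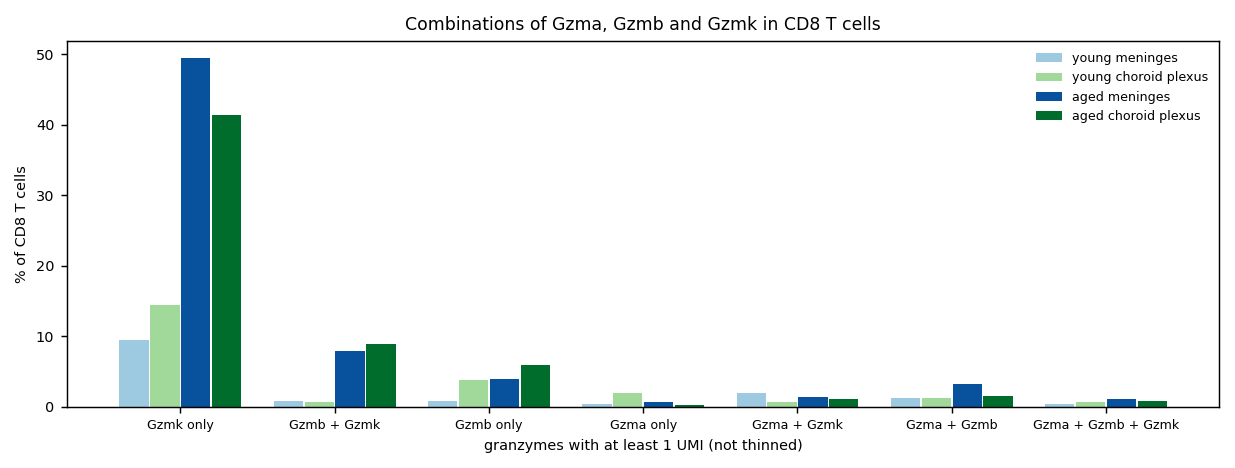
Share of CD8 T cells (vertical axis, percent, not thinned) with each combination of Gzma, Gzmb and Gzmk UMIs in the 4 libraries. Cells with Gzmk alone were 9.45% and 14.4% of the young and 49.5% and 41.4% of the aged libraries, and all combinations with Gzma stayed below 4%.

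Over all 36 pairs of the genes, co-detection in thinned CD8 T cells was described by an odds ratio for pairs with at least 1 cell expected. The median was 3.43 over 21 pairs in the young meninges and 2.05 over 19 in the young CP, against 1.15 over 32 and 1.19 over 31 pairs in the aged libraries. Among CD8 T cells without Ccr7 it was 2.3, 1.7, 1.21 and 1.19. The value for the young meninges varied with the random draw and was 2.24 in another. In the aged CD8 T cells Srgn and Nkg7 had odds ratios of 0.72 and 0.74, whereas Gzmk and Nkg7 had 2.88 and 1.78 and Gzmk and Cst7 1.53 and 1.40. Outside CD8 T cells Gzmk and Nkg7 had odds ratios of 10.9 in CD4 T cells of the aged meninges (33 cells with both, 11.9 expected) and 6.27 in those of the aged CP. Srgn and Nkg7 had 0.55 and 0.50 in CD4 and double-undetected cells of the aged meninges.

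Marker genes divided the carriers further. Among CD8 T cells, Gzmm had a higher level with a Ccr7 UMI than without one in 3 libraries, at 21.8 against 5.44 CPM in the young meninges, 127 against 22.9 in the aged meninges and 74.5 against 16.6 in the aged CP. In the young CP it was at 6.44 against 18.5 CPM. These Gzmm values rest on 17, 8, 33 and 42 UMIs in 9, 4, 13 and 18 CD8 T cells. Without the top cell the load in the young CP went from 2 to 1 UMI per positive cell. Gzma, Gzmb, Gzmk and Nkg7 were lower in the Ccr7-positive CD8 T cells of all 4 libraries. Prf1 was at 20.3, 32.2, 59.2 and 48.2 CPM with Ccr7 and 32.7, 46.3, 69.9 and 39.8 CPM without. Nkg7 remained at 595, 564, 980.3 and 1134 CPM in the Ccr7-positive cells, Ctsw at 345, 312, 406 and 504 CPM, Cst7 at 116, 77.3, 203 and 188 CPM and Srgn at 402, 341, 532 and 565 CPM. Ccr7-positive CD8 T cells thus held Nkg7, Ctsw, Cst7 and Srgn in every library, whereas Gzma had at most 9.66 CPM in them against 75.0 to 860 CPM in the other cells. Low levels with Ccr7 were not particular to Gzma. In the young meninges Ccr7-positive cells were 59.7% of all T cells, and held 4 of 68 Gzmb UMIs and 9 of 366 Gzma UMIs.

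Foxp3 marks regulatory T cells, which were 3.28% of T cells in the young and 10.0% in the aged meninges. Foxp3-positive T cells had more Srgn than the other T cells, 1819 against 1055 CPM in the aged meninges, 1349 against 795 in the aged CP and 1066 against 577 in the young meninges. They had less Gzmk, 34.0 against 335 CPM in the aged meninges and 55.7 against 254 in the aged CP, and less Nkg7, 217 against 1244 and 560.3 against 1274 CPM. Cst7 was at 146 against 187 CPM in the aged meninges and 226 against 191 in the aged CP. Gzmb was lower in the Foxp3-positive cells of the aged meninges, at 17 against 79.8 CPM, but not in those of the aged CP, at 96.8 against 75.8 CPM. These values pool the classes, so the other cells include CD8 T cells, and the Foxp3-positive cells include cells outside the CD4 class. All 230 CD4 T cells of the aged CP together held 2 Gzmb UMIs. The Gzmb level of the Foxp3-positive cells of the aged CP thus came mostly from cells outside the CD4 class. Within CD4 T cells, 44 Foxp3-positive cells of the aged meninges had 5.14 against 203 CPM of Gzmk (1 UMI), 123 against 576 of Nkg7, 144 against 127 of Cst7 and 1814 against 1179 of Srgn. In the aged CP 20 such cells had 39.2 against 121 CPM of Gzmk (4 UMIs), 68.6 against 411 of Nkg7 (7 UMIs) and 1214 against 971 of Srgn.

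Eomes encodes a T-box transcription factor of memory and cytotoxic lymphocytes. Eomes-positive T cells of the aged meninges had 832 CPM of Gzmk against 232 in the others, 342 against 162 of Cst7, 80.1 against 22.2 of Prf1 and 2640 against 931 of Nkg7. The aged CP had 564 against 188 CPM of Gzmk and 48.1 against 22.2 of Prf1. Double-undetected cells with Eomes, 50 cells of the aged meninges, had 1049 CPM of Gzmk against 196 in the rest. Srgn was lower in Eomes-positive cells, at 660.1 against 1210.0 CPM in the aged meninges, and Gzmb was nearly the same, at 80.1 against 71.0 CPM. The classes were pooled in these values of all T cells. Within CD8 T cells the Eomes split was narrower, at 697 against 446 CPM of Gzmk and 91.2 against 61.2 CPM of Prf1 in the aged meninges, and 517 against 284 and 42.2 against 40.5 CPM in the aged CP.

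Itgae encodes an integrin that binds E-cadherin in epithelia. In CD8 T cells of the aged CP, 65 cells with Itgae had 260 CPM of Gzmb against 110 in the others, 944 against 665 of Ctsw and 174 against 365 of Gzmk. Cxcr6, a chemokine receptor of tissue T cells, went the same way in that library, with Gzmb at 166 against 62.5 CPM and Gzmk at 305 against 401 CPM. In CD8 T cells of the aged meninges Cxcr6 did not, with Gzmb at 155 against 147 CPM and Gzmk at 582 against 418 CPM. In the young libraries most of the Gzmk was in Cxcr6-positive cells, 82.1% of UMIs in the meninges and 88.9% in the CP, against 44.4% and 53.1% in the aged ones. Cells with Cxcr6 were 19.5%, 21.8%, 35.9% and 48.5% of T cells.

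**Figure D5:**
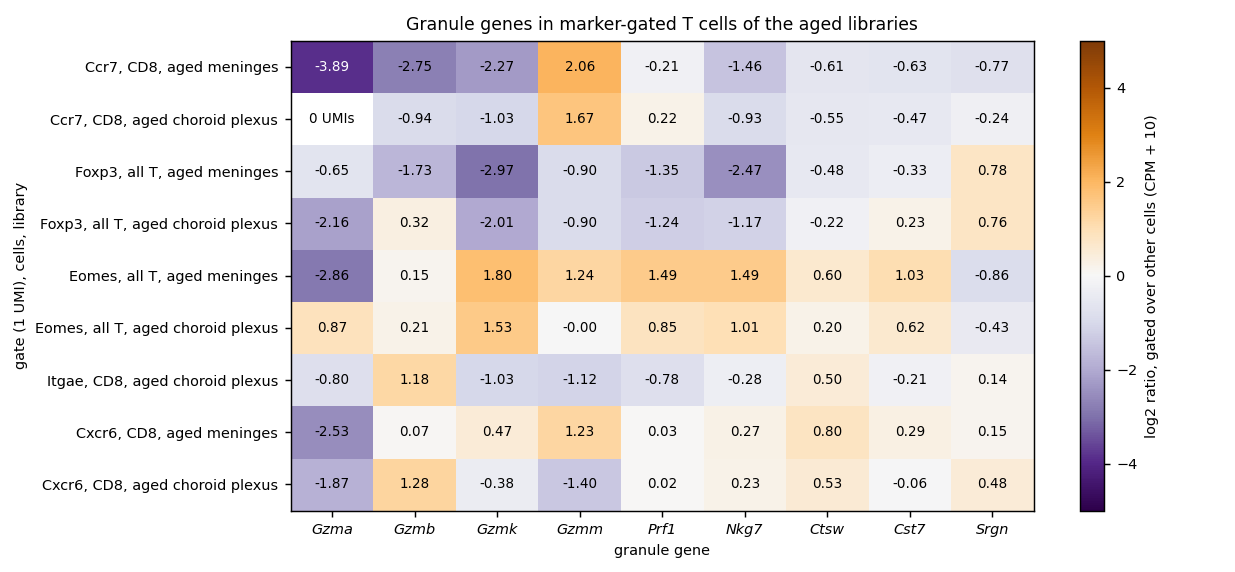
Log2 ratio (colour and number, CPM + 10) of each granule gene (columns) in T cells with a UMI of the named gate gene over the other cells of the same library (rows: gate, cells and library). Gzmk and Gzmb part in Itgae-positive CD8 T cells (-1.03 and 1.18). In Foxp3-positive T cells Srgn was higher in both aged libraries (0.78 and 0.76), while Gzmk and Nkg7 were lower. Cst7 and Gzmb were also higher there in the aged CP, though by less than the rule of size asks, and lower in the aged meninges. Whether the aged CP values exceed counting error was not tested. The Foxp3 rows pool the classes, and all CD4 T cells of the aged CP together held 2 Gzmb UMIs.

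Markers of other lymphocytes were counted in the same cells. At least 1 of 4 NK cell markers (Ncr1, Klrb1c, Klre1 and Klra8) was found in 5.12%, 8.12%, 9.25% and 12.1% of CD8 T cells, at a summed level of 28.4 to 53.6 CPM, with Ncr1 at 0 in the young meninges and the aged CP. These cells held 66.5%, 46.9%, 63.5% and 46.9% of the Gzma UMIs of CD8 T cells, 86.0%, 70.2%, 24.1% and 16.4% of the Gzmb UMIs, and 8.41%, 6.12%, 10.5% and 15.3% of the Gzmk UMIs. At least 1 of 5 γδ T cell markers (Trdc, Tcrg-C1, Tcrg-C2, Tcrg-C4 and Trdv4) was found in 3.94%, 5%, 18.9% and 32.8% of CD8 T cells, with Trdv4 at 0 in all 4 libraries. A UMI of 1 of these genes does not by itself make a cell a γδ T cell. Cells with a γδ marker held 50.5%, 16.3%, 19.6% and 40.8% of the Gzmk UMIs of CD8 T cells. Their shares were 48.8%, 66.7%, 16.1% and 31.0% for Gzmb and 37.9%, 0%, 25% and 41.6% for Gzma. Without the cells of either list 5 of 9 genes were higher with age in meningeal CD8 T cells, against 3.55% of all genes tested, and 3 in place of 1 in CP CD8 T cells, against 2.9%. The log2 ratio of Gzmb in the meninges was 3.20 in place of 1.67. Markers of B cells were found in 51.2%, 43.8%, 14.6% and 18.2% of CD8 T cells, with Cd79a at 0 throughout, those of macrophages in 1.78 to 3.94%, and those of mast cells, neutrophils and fibroblasts in at most 0.625%. Without cells holding any of these markers, 3 or more granule genes were found in 22.7% and 27.7% of young CD8 T cells, and the part of such cells in the age difference was not tested further. Red cell transcripts were found in up to 23.5% of CD8 T cells.

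In CD8 T cells the wider machinery had a smaller median log2 ratio with age than the 9 genes in each tissue. The genes and the lists were chosen with earlier results of these data known, so the contrast is a description. Of 26 genes for granule maturation, transport and release, granzyme inhibitors, death ligands and the other granzymes, 18 had enough UMIs in meningeal CD8 T cells. There 2 were higher with age, against 3.2% of all genes tested, and 0 lower, against 1.83%. The 2 were Vamp8 (74.7 to 168 CPM), a membrane-fusion protein of granules, and Tnfsf10 (17 to 46.4 CPM), the death ligand TRAIL. Fasl, the Fas ligand, went from 18 to 43.1 CPM with a log2 ratio of 0.92. At the low end were Snap23 (-0.51), Ap3d1 (-0.20) and Ap3b1 (-0.18). In CP CD8 T cells 0 of 18 were higher, against 2.46%, and 0 lower, against 0.872%. The largest log2 ratios there were those of Serpinb6a (0.94), a protease inhibitor, Fasl (0.91) and Stx11 (0.89), a syntaxin needed for granule release, and the smallest those of Lyst (-0.42), Unc13d (-0.34) and Ap3d1 (-0.30). The median over the 18 genes was 0.44 in the meninges and 0.42 in the CP, beside 0.04 and 0.12 over all genes tested.

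Of 15 transcription factors known to govern cytotoxic and memory programmes, 14 could be counted in CD8 T cells of each tissue. In the meninges 6 were higher with age, against 3.2% of all genes tested, and 3 lower, against 1.83%. Id2 went from 100 to 314 CPM, Eomes from 26.5 to 93.9 and Bhlhe40 from 26.5 to 79.5 CPM, whereas Lef1, Tcf7 and Klf2, which mark naive and central memory T cells, had log2 ratios of -2.05, -1.63 and -1.5. In the CP 2 were higher (Bhlhe40, 1.05, and Tbx21, 1.02), against 2.46%, and 3 lower (Lef1, -2.19, Klf2, -1.83, and Bach2, -1.45), against 0.872%, and Id2 was at 0.83. Eomes had a log2 ratio of 1.51 in the meninges and 0.74 in the CP.

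The profiles of the genes over the 12 combinations of class and library were compared with those of 3384 genes with at least 50 CPM in 1 of them. The profiles share libraries and depth, so the correlations are descriptions. Gzmk was most like Cst7 (Pearson r = 0.98), Sytl3 (0.95) and Ccl5 (0.94), and Cst7 most like Gzmk, Ccl5 (0.95) and Eomes (0.95). Nkg7 was most like Ifitm10 (0.99), Eomes (0.98) and Ccl5 (0.97), and Ctsw most like Ifitm10 (0.97), Nkg7 (0.96) and Cd160 (0.94). Gzmb was most like Slamf7 (0.95), Nkg7 (0.93) and Eomes (0.93), Gzmm most like Klrk1 (0.96), Ctsw (0.95) and Zyx (0.95), and Prf1 most like Tm6sf1 (0.94), Cd8a (0.87) and Klrk1 (0.87). Srgn stood apart from the other 8 genes, with r between -0.22 and 0.58 to them, and was most like Atp2b1 (0.99), Cd82 (0.98) and Ndfip1 (0.98). Gzma, whose level rests on few cells, was most like Mrpl58 (0.88), Ostf1 (0.88) and Ndufa8 (0.86).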

How the data were processed

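Single-cell gene counts of 4 libraries were used as deposited: UMI counts per gene and cell that the authors made with Cell Ranger (5.1.0 in the submitters' processing notes, 3.1.0 in the file headers) against mm10. Every column was mapped to a sample (0 left unmapped). Cells under 200 or over 7000 genes or over 5% mitochondrial counts were removed, after the study. Doublets were marked with Scrublet (scanpy 1.11.5) in place of the study's DoubletFinder, and Scrublet marked 16, 22, 0 and 5 cells of the young meninges, young CP, aged meninges and aged CP. The libraries held 2295950 to 4262917 UMIs. UMIs were summed by class and library in Python 3.11.15 (numpy 2.4.6, pandas 2.3.3, scipy 1.17.1), with exact Poisson intervals for levels, conditional binomial intervals for folds and Clopper-Pearson intervals for shares. These intervals reflect counting error and hold nothing of the spread from mouse to mouse. With 1 library per group no test was run. Genes are described by the rule of size. Shares and co-detection used cells thinned to 1000 UMIs where stated. All 9 genes are named, with the 3 genes at each end of the 2 pathway lists in CD8 T cells and the 3 genes most like each. The genes and lists were chosen with earlier results of these data known. A gate was used where at least 20 cells passed it. Leaving out the cell with most UMIs of a gene, and cells whose barcode was found in another library, were added after seeing the data.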

Additional observations from a re-analysis of the deposited data

Results flagged for a closer look

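Gzma moved in opposite directions with age in 2 classes of the same CP libraries. Its log2 ratio of aged over young was -1.32 in CD8 T cells and 1.17 in double-undetected T cells. The difference between the classes was not tested, since each class has 1 library per age. Single cells weigh on both values: 1 CD8 T cell held 53 of 113 Gzma UMIs of the young CP, and among double-undetected cells 1 cell held 24 of 26 UMIs of the young CP and 1 held 42 of 85 of the aged CP. Without the cell with most UMIs in each library the log2 ratios were -0.79 and 2.10.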

How the results depend on the processing

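The log2 ratio of Gzmk with age was at least 1 in all 6 class and tissue comparisons under all 17 settings, with a lowest value of 1.10 in meningeal CD8 T cells. Among these settings, no minimum of UMIs and a minimum of 50 UMIs leave every ratio unchanged by design. The lowest values among the other called ratios were those of Gzma in double-undetected cells of the CP (0.07) and Nkg7 in meningeal CD4 T cells (0.17). No direction reversed. With 2 UMIs needed for a CD4 or CD8 call, 1 gene was higher with age in meningeal CD4 T cells and 1 differed between the tissues in young CD8 T cells. That tissue count was also 1 without Ccr7 cells, with the mean of single-cell CPM and with a pseudocount of 1 CPM. Genes higher with age in CP CD8 T cells numbered 3 without NK or γδ marker cells, against 2.9% of all genes tested. They numbered 2 without cells holding markers of other types, 2 with cells thinned before summing, and 3 without the cell with most UMIs. In that last setting 0 were lower. Without Ccr7 cells, 3 genes were higher with age in meningeal CD8 T cells and 3 in double-undetected cells of the CP. The shares of all genes tested were 4.29% and 4.14% there. With a pseudocount of 50 CPM, 3 were higher in meningeal CD8 T cells, 0 lower in CP CD8 T cells, and 5 higher in CD8 than CD4 T cells in each aged library, as with thinned cells in the aged meninges (5). Where no share of all genes is given beside a count here, that share was not computed under the setting. Such a changed count describes the setting and is not a result about the 9 genes. The share of CD8 T cells with 3 or more of the genes was 56.3%, 60%, 87.9% and 89.2% without thinning and 4.33%, 8.75%, 28.5% and 17.3% at 500 UMIs. It was 28.9% and 37.0% in the young libraries without Ccr7 cells, 22.7% and 27.7% without cells holding other markers, and 44.8% in the aged CP in another draw. The median odds ratio was 1.82 and 3.1 in the young libraries at 500 UMIs and 2.24 in the young meninges in another draw. The cause of these shifts was not tested. No paired analysis was possible because each group has 1 library, and no replicate could be left out.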
